A study of Mus musculus with 12 samples.

Results

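The 8 genes described here, Ddx58, Ifih1, Trim25, Mavs, Tmem173, Traf3, Tbk1 and Irf3, encode the sensing of RNA and DNA in the cytosol and the signalling that leads to type I interferon. They were chosen by symbol and not by a cut on their values, though with earlier results of these data known. All 8 were found among the 12584 genes of the table. Of the 8, 7 reached 1 FPKM in at least 3 libraries, the condition for being tested, as did 10101 of all genes. Ifih1 did not pass, with a highest value of 0.955 FPKM, and has no test of its own. FPKM are reads per kilobase of gene and per mega-read of library, so that levels can be set side by side between genes.

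RNA was sequenced from CT26, a mouse colon carcinoma line, in 12 libraries that formed 4 groups of 3. Cells had been treated for 24 h with NP-D@MP, NP-D@M, NP@M or PBS. The labels do not spell out these names. The title of the study speaks of a nanodrug against cyclin-dependent kinases that carries a coat of engineered tumour cell membrane and is meant for use with an antibody to PD-L1. Nothing in the labels says that libraries of the same group are from different cultures. The p-values below therefore speak of the spread between libraries, which may be technical.

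RIG-I (Ddx58) and MDA5 (Ifih1) are helicases that bind viral or self double-stranded RNA and, with help from the ubiquitin ligase TRIM25, switch on the mitochondrial adaptor MAVS. STING (Tmem173) is the adaptor for cytosolic DNA, on the endoplasmic reticulum, and answers the cyclic dinucleotide made by cGAS. Both routes meet at the kinase TBK1, MAVS through TRAF3, and TBK1 phosphorylates IRF3, which enters the nucleus and turns on Ifnb1 and other target genes. In tumour cells these routes are known for linking leaked DNA and RNA to interferon and to chemokines that attract T cells.

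The reads in the table summed to 12.8 to 14.9 M (mega-reads) in the 6 libraries treated with the agents that have D in their name and to 13.9 to 15.7 M in the 6 without. The library sizes by which the authors had divided, recovered from the values, were 7.13 to 8.40 M with D and 28.2 to 31.1 M without, which is 0.533 to 0.565 times the reads in the table with D and 1.95 to 2.02 times without. Results are therefore also given with each library rescaled to the reads it has in the table, called table-read scaling below, and a direction that depends on this choice is named as such. Mitochondrial genes held 7.41 to 14.4% of the reads with D and 3.30 to 4.20% without, and ribosomal protein genes 14.1 to 16.3% with D and 5.87 to 6.68% without. Of 8 epithelial markers only Krt18 and Krt20 could be looked up, with a summed level of 73.0 to 91.1 FPKM with D and 15.1 to 18.7 FPKM without. They did not go one way: Krt20 had 71.3 to 88.2 FPKM with D and 7.83 to 9.64 FPKM without, and Krt18 1.73 to 5.97 FPKM with D and 5.61 to 9.61 FPKM without, with overlap. Of 8 leukocyte and myeloid markers 3 could be, Cd68, Lyz2 and Ptprc, with sums of 9.31 to 21.3 FPKM with D and 2.57 to 3.25 FPKM without. Ptprc, which marks all leukocytes, was at 0 in all 6 libraries without D and at most 0.0677 FPKM with D. Of 6 fibroblast markers 5 could be, with sums of 10.2 to 15.2 FPKM with D and 65.8 to 79.6 FPKM without. Col1a1 and Col1a2 made up most of these sums, while Dcn went the other way, at 0.104 to 0.490 FPKM with D and 0.0165 to 0.101 FPKM without. Of 3 endothelial markers only Pecam1 could be, at no more than 0.191 FPKM in any library. None of 8 retina markers, looked up because the extraction protocol speaks of retinas, was found by symbol among the genes of the table. The part of these shifts in the results on the 8 genes was not tested. In such bulk RNA, fewer cells of a type and less RNA per cell cannot be told apart.

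In the libraries with D, 7 of the 8 genes were lower in FPKM and Traf3 was higher (lower under table-read scaling), and this held for NP-D@M against NP@M and for NP-D@MP against PBS. The kinase Tbk1 fell the most, to a mean of 0.269 ± 0.0504 FPKM with NP-D@M, against 8.26 ± 1.19 FPKM with NP@M (SD, n = 3 each). In limma with Benjamini-Hochberg adjustment over 10101 genes, Traf3 was called higher and the other 6 tested genes lower in NP-D@M against NP@M. Over all tested genes, 41.8% were called higher and 47.7% lower in that comparison. In NP-D@MP against PBS the same tests again called Traf3 higher and 6 lower, with 43.2% of all tested genes called higher and 47.3% lower. The groups of libraries did not overlap for any of the 8 genes in either comparison, as was so for 87.3% and 93.0% of all tested genes. With so wide a change over all genes, a call by itself sets none of the 8 apart. The 2 comparisons share no library.

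**Figure D1:**
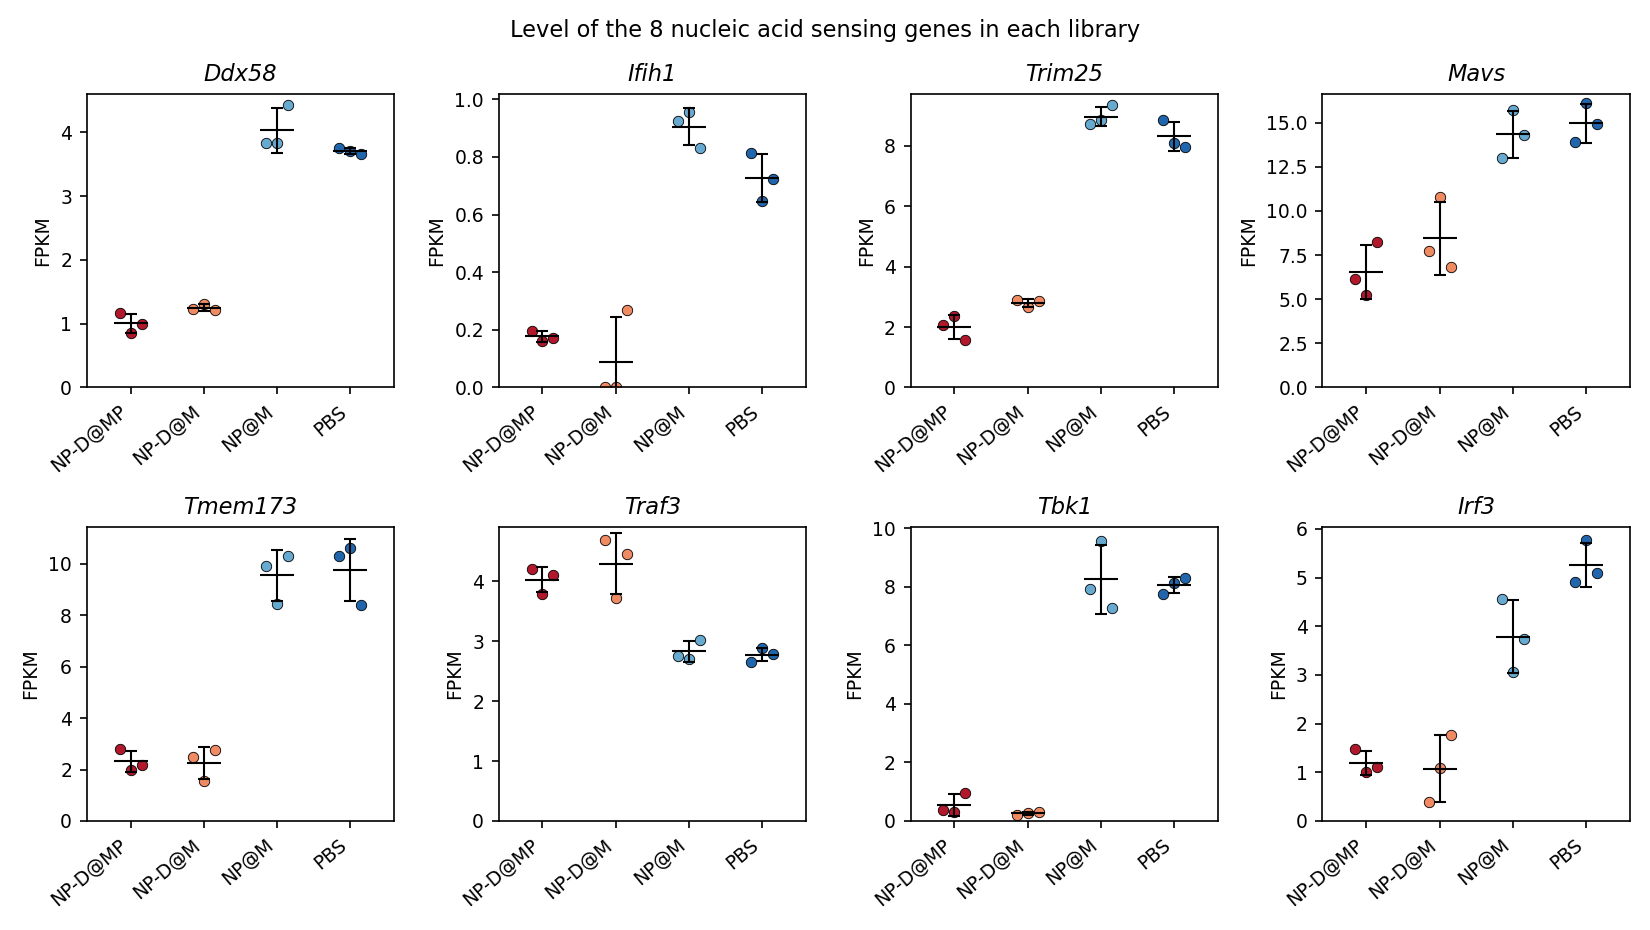
FPKM of each of the 8 genes (vertical axis, linear, from 0) in each library (points) of the groups NP-D@MP, NP-D@M, NP@M and PBS, with the group mean and SD (n = 3) as bars, cut at the axis for Ifih1 with NP-D@M. The 6 libraries with D lie below the 6 without it for every gene but Traf3, for which they lie above in these FPKM as deposited and below under table-read scaling.

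The RNA sensors were low in the libraries with D. Ddx58, which encodes RIG-I (ENSMUSG00000040296, chromosome 4, 40203773 to 40239828, minus strand, GRCm38), had 1.16, 0.860 and 0.994 FPKM with NP-D@MP and 1.23, 1.31 and 1.21 FPKM with NP-D@M. It had 3.83, 3.83 and 4.43 FPKM with NP@M and 3.76, 3.70 and 3.66 FPKM with PBS. The 2 sets of 6 libraries did not overlap, and the 3 NP-D@MP libraries also lay below the 3 NP-D@M libraries. The fall was 3.22-fold in mean FPKM for NP-D@M against NP@M, with a log2 change of -1.16 (SE 0.0865, limma, Benjamini-Hochberg adjusted p = 1.30e-07). Against PBS, NP-D@MP gave -1.23 (limma, adjusted p = 7.34e-08). Under table-read scaling the folds were 11.5 for NP-D@M below NP@M and 13.7 for NP-D@MP below PBS. Log2 changes here are of FPKM + 1, which makes the change of low genes look smaller than the fold.

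Ifih1, which encodes MDA5 (ENSMUSG00000026896, chromosome 2, 62595798 to 62646255, minus strand), was the lowest of the 8 genes in every group. It had 0.197, 0.162 and 0.172 FPKM with NP-D@MP, from 10 to 12 reads a library. With NP-D@M it had 0 reads in 2 libraries, which allows 0.0438 to 0.0506 FPKM as the worth of 3 reads, and 18 reads or 0.269 FPKM in the other. It had 0.926, 0.955 and 0.832 FPKM with NP@M and 0.814, 0.647 and 0.722 FPKM with PBS, from 162 to 232 reads. Libraries with D were thus all below those without. The fold of NP-D@M below NP@M, 10.1, rests on the single NP-D@M library with reads, N9, and without it the NP-D@M mean is 0. NP-D@MP was 4.12-fold below PBS, and 15.3-fold under table-read scaling. Without the filter on low values limma gave Ifih1 a log2 change of -0.81 (Benjamini-Hochberg adjusted p = 1.29e-05) in NP-D@M against NP@M and -0.55 (adjusted p = 0.000276) in NP-D@MP against PBS.

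Trim25, whose ubiquitin ligase activates RIG-I (ENSMUSG00000000275, chromosome 11, 88999376 to 89020293, plus strand), had 2.07, 2.36 and 1.56 FPKM with NP-D@MP and 2.90, 2.66 and 2.86 FPKM with NP-D@M. It had 8.72, 8.84 and 9.34 FPKM with NP@M and 8.86, 8.09 and 7.97 FPKM with PBS. As for Ddx58, the libraries with D were all lower and the NP-D@MP libraries were the lowest. The fall was 3.20-fold for NP-D@M against NP@M, at a log2 change of -1.39 (limma, Benjamini-Hochberg adjusted p = 1.31e-07), and 4.16-fold for NP-D@MP against PBS, at -1.64 (adjusted p = 2.98e-08). Under table-read scaling Trim25 was 11.4-fold lower in NP-D@M than in NP@M and 15.4-fold lower in NP-D@MP than in PBS.

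The sensors and Trim25 are themselves known as interferon-induced genes, so their starts were searched for the core of the interferon-stimulated response element, GAAANNGAA, on both strands. The windows run from 250 bases before to 50 bases after each gene's start in RefSeq (GRCm38.p6), where 7 of the 8 genes were matched and Tmem173 was not used. The core was held by 2812 of the 32851 windows of the same length (8.56%) and by 3 of the 7, those of Ifih1, Ddx58 and Trim25. These 3 are shown because they hold it, 5′ to 3′ on the gene's strand, with the core in capitals, from chr2:62646206-62646505 (minus strand), chr4:40239776-40240075 (minus strand) and chr11:88999153-88999452 (plus strand).
Ifih1: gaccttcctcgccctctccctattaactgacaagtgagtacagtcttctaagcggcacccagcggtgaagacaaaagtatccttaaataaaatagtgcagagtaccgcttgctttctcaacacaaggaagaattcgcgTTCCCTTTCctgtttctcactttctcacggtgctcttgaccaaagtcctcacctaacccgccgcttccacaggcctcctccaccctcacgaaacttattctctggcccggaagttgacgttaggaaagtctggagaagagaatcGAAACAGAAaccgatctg
Ddx58: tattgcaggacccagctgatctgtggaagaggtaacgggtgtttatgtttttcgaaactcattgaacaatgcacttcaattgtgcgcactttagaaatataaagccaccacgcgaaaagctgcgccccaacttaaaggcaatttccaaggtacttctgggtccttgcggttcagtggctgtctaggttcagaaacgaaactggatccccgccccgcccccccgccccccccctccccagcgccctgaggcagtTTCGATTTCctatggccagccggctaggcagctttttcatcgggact
Trim25: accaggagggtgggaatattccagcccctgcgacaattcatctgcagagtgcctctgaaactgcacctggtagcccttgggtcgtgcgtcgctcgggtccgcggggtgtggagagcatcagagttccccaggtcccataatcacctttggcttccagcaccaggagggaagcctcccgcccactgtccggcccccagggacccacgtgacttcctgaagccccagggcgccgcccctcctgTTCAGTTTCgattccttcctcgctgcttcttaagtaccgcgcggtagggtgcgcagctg
In Ifih1 the core began 112 bases before the first base of the gene as TTCCCTTTC, which is the core read on the opposite strand, and 32 bases after it as GAAACAGAA. In Ddx58 it began 3 bases after the first base as TTCGATTTC, and in Trim25 9 bases before it as TTCAGTTTC, both on the opposite strand. The first base here is the RefSeq start, which for Ddx58 and Trim25 differs from that of the coordinates given above. None of the windows of Mavs, Irf3, Tbk1 and Traf3 held these letters. A match is a description of the sequence and not evidence of a site. All 3 genes that hold the core were lower in the libraries with D, as were 4 of the other 5.

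The adaptor genes Mavs and Tmem173 were lower with D as well. Mavs, the mitochondrial adaptor of the RNA sensors (ENSMUSG00000037523, chromosome 2, 131234063 to 131248025, plus strand), was the highest of the 8 genes in every group, with no overlap with the next. It had 6.16, 5.24 and 8.22 FPKM with NP-D@MP and 7.73, 10.8 and 6.85 FPKM with NP-D@M. It had 13.0, 15.7 and 14.3 FPKM with NP@M and 13.9, 16.1 and 14.9 FPKM with PBS. Libraries with D were all lower, though Mavs had the smallest fold of the 7 lower genes. The fold was 1.70 for NP-D@M below NP@M, at a log2 change of -0.72 (SE 0.170, limma, Benjamini-Hochberg adjusted p = 0.00184), and 2.29 for NP-D@MP below PBS, at -1.10 (adjusted p = 7.19e-05). Under table-read scaling Mavs was 6.03-fold lower in NP-D@M than in NP@M and 8.48-fold lower in NP-D@MP than in PBS.

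Tmem173, which encodes the adaptor STING (ENSMUSG00000024349), had 2.79, 2.0 and 2.19 FPKM with NP-D@MP and 2.48, 1.56 and 2.75 FPKM with NP-D@M. It had 9.93, 8.42 and 10.3 FPKM with NP@M and 10.3, 10.6 and 8.39 FPKM with PBS. The groups with D overlapped each other and lay wholly below those without. The fall was 4.22-fold for NP-D@M against NP@M, at a log2 change of -1.71 (SE 0.156, limma, Benjamini-Hochberg adjusted p = 7.52e-07). It was 4.18-fold for NP-D@MP against PBS, at -1.69 (adjusted p = 8.31e-07). With table-read scaling Tmem173 was 15.1-fold lower in NP-D@M than in NP@M and 15.5-fold lower in NP-D@MP than in PBS. Of all tested genes, 10.2% had a lower log2 change than Tmem173 in the first of these comparisons and 9.68% in the other.

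**Figure D2:**
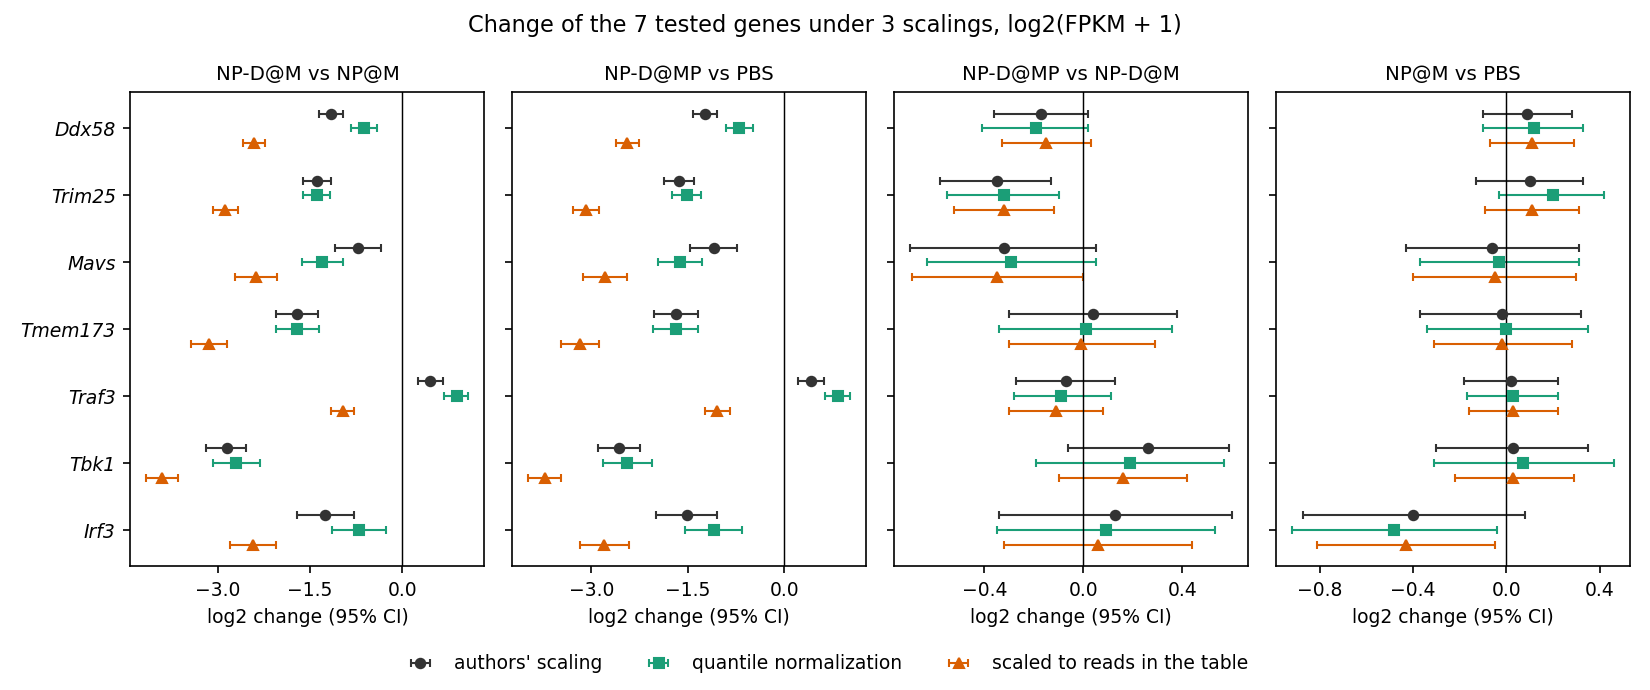
Log2 change of FPKM + 1 (horizontal axis, with 95% confidence interval, limma) of the 7 tested genes in the 4 comparisons, under the authors' scaling (circles), quantile normalization (squares) and table-read scaling (triangles). For NP-D@M against NP@M, Traf3 lay at 0.46 under the authors' scaling and at -0.97 under table-read scaling, while the other 6 genes lay below 0 under all 3. Horizontal axes differ between the 4 panels.

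The scaling sets the size of these changes and the direction of Traf3. Under table-read scaling the median over all 10101 tested genes moved to a log2 change of -1.46 in NP-D@M against NP@M and in NP-D@MP against PBS, compared with -0.19 and -0.16 under the authors' scaling. All 7 tested genes were then called lower in both comparisons, beside 17.5% of all tested genes called higher in each and 70.5% and 70.7% called lower. Relative to other genes, Tbk1 had a lower log2 change than all but 0.960% of tested genes under the authors' scaling and 1.69% under table-read scaling, in NP-D@M against NP@M. Tbk1 entered the tested genes only through the libraries without D, so this place was favoured by the filter. For Traf3 the share of genes with a lower change was 59.5% and 60.0%, so that it stood above the median gene under both scalings. For Mavs it was 37.5% and 23.5%.

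Traf3, the adaptor that brings TBK1 to MAVS (ENSMUSG00000021277, chromosome 12, 111166370 to 111267153, plus strand), ran against the rest in FPKM. It had 4.20, 3.79 and 4.10 FPKM with NP-D@MP and 4.70, 3.73 and 4.46 FPKM with NP-D@M. It had 2.76, 2.70 and 3.03 FPKM with NP@M and 2.66, 2.88 and 2.78 FPKM with PBS. All 6 libraries with D were above all 6 without. The rise was 1.52-fold for NP-D@M against NP@M, at a log2 change of 0.46 (SE 0.0914, limma, Benjamini-Hochberg adjusted p = 0.000497). It was 1.45-fold for NP-D@MP against PBS, at 0.41 (adjusted p = 0.00116). In reads, Traf3 held 211 to 231 with NP-D@MP and 199 to 290 with NP-D@M, against 588 to 692 with NP@M and 576 to 650 with PBS. Under table-read scaling it was therefore 2.35-fold lower in NP-D@M than in NP@M, at a log2 change of -0.97, and 2.56-fold lower in NP-D@MP than in PBS, at -1.04.

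Tbk1, the kinase on which the MAVS and STING routes converge (ENSMUSG00000020115, chromosome 10, 121546455 to 121586787, minus strand), had 0.376, 0.304 and 0.968 FPKM with NP-D@MP and 0.213, 0.282 and 0.312 FPKM with NP-D@M. It had 7.93, 9.58 and 7.27 FPKM with NP@M and 7.75, 8.12 and 8.29 FPKM with PBS. The highest library with D, N12, stood far below the lowest without. These levels rest on 9 to 27 reads a library with NP-D@MP and 7 to 10 with NP-D@M, against 883 to 1110 with NP@M and 913 to 973 with PBS. No library with D reached 1 FPKM, so Tbk1 passed the filter on low values only through the libraries without D. Its call of lower was favoured by that. Tbk1 was 30.7-fold lower in NP-D@M than in NP@M, at a log2 change of -2.86 (SE 0.148, limma, Benjamini-Hochberg adjusted p = 5.31e-09), and 110-fold lower under table-read scaling. It was 14.7-fold lower in NP-D@MP than in PBS, at -2.57 (adjusted p = 1.28e-08), and 54.4-fold lower under table-read scaling. Library N12 alone decides the size of the 14.7-fold difference, which is 23.7 without it.

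The starts of these 2 genes at the ends of the range differ in composition and are shown for that reason, from chr12:111166120-111166419 (plus strand) and chr10:121586745-121587044 (minus strand) in RefSeq (GRCm38.p6), with no capitals since neither holds the core above.
Traf3: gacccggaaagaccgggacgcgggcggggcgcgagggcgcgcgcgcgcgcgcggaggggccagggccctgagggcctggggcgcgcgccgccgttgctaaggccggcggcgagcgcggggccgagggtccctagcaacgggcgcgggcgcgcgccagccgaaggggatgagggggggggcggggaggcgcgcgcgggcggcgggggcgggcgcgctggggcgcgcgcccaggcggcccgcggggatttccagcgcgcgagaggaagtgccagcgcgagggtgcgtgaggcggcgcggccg
Tbk1: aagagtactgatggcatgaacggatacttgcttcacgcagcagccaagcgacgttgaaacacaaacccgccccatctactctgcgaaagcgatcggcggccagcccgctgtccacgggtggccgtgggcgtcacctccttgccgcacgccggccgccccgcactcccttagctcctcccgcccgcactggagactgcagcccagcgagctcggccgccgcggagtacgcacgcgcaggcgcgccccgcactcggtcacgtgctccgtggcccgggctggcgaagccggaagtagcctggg
The Traf3 window had 84.0% G or C and 59 CG pairs, and that of Tbk1 69.0% and 37. Those of Mavs, Trim25, Irf3, Ddx58 and Ifih1, all lower with D, had 64.0, 62.7, 58.3, 53.3 and 49.0% G or C. Tbk1, the gene that fell most, thus came next to Traf3 in composition. A link between composition and change was not tested. Over all windows the median was 52.7%, with quartiles of 45.7 and 61.7%, and the median number of CG pairs was 7, with quartiles of 3 and 20.

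Irf3, the transcription factor that TBK1 phosphorylates (ENSMUSG00000003184, chromosome 7, 44997648 to 45002848, plus strand), had 1.48, 0.996 and 1.10 FPKM with NP-D@MP and 0.381, 1.08 and 1.77 FPKM with NP-D@M. It had 4.56, 3.06 and 3.74 FPKM with NP@M and 4.90, 5.77 and 5.10 FPKM with PBS. The groups with D were lower without overlap, and the NP-D@M libraries were widely spread, on 11, 27 and 50 reads. The fall was 3.52-fold for NP-D@M against NP@M, at a log2 change of -1.25 (SE 0.214, limma, Benjamini-Hochberg adjusted p = 0.000167), and 4.41-fold for NP-D@MP against PBS, at -1.52 (adjusted p = 3.38e-05). Under table-read scaling the fall was 12.6-fold for NP-D@M against NP@M and 16.4-fold for NP-D@MP against PBS. Irf3 shares 88 exon bases (2.56%) with Bcl2l12 on the opposite strand, and whether the authors counted by strand is not known here.

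The order of the 8 levels changed with D. Without it, Mavs came first at 14.3 ± 1.36 FPKM with NP@M and 15 ± 1.11 FPKM with PBS (SD, n = 3), and Tmem173, Trim25 and Tbk1 followed with ranges that overlapped from one to the next. Traf3 was seventh at 2.83 ± 0.175 FPKM with NP@M and 2.78 ± 0.111 FPKM with PBS, and only Ifih1 was lower. With D, Traf3 was second at 4.03 ± 0.218 FPKM with NP-D@MP and 4.30 ± 0.504 FPKM with NP-D@M, with no overlap with Mavs above or the next gene below. Tbk1 was seventh at 0.549 ± 0.365 FPKM with NP-D@MP and 0.269 ± 0.0504 FPKM with NP-D@M, and its range overlapped that of Ifih1 with NP-D@M. Tmem173 and Trim25 overlapped in each of the 4 groups.

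Rank within a library does not depend on how that library was scaled. Tbk1 lay above 21.3 to 37.4% of the 12584 genes with NP-D@MP and above 21.6 to 23.5% with NP-D@M, against 71.3 to 77.1% with NP@M and 72.1 to 74.2% with PBS. Traf3 moved the other way, above 60.0 to 61.2% with NP-D@MP and 60.2 to 64.0% with NP-D@M, against 44.9 to 47.5% with NP@M and 44.4 to 46.1% with PBS. Mavs lay above 64.7 to 70.6% with NP-D@MP and 68.4 to 74.6% with NP-D@M, against 83.2 to 86.1% with NP@M and 83.7 to 85.8% with PBS. The groups with and without D did not overlap in rank for these 3 genes, nor for the other members. The share of all genes without overlap in rank was not computed. In FPKM it was 87.3% of tested genes for NP-D@M against NP@M and 93.0% for NP-D@MP against PBS. A lack of overlap thus sets none of the members apart.

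**Figure D3:**
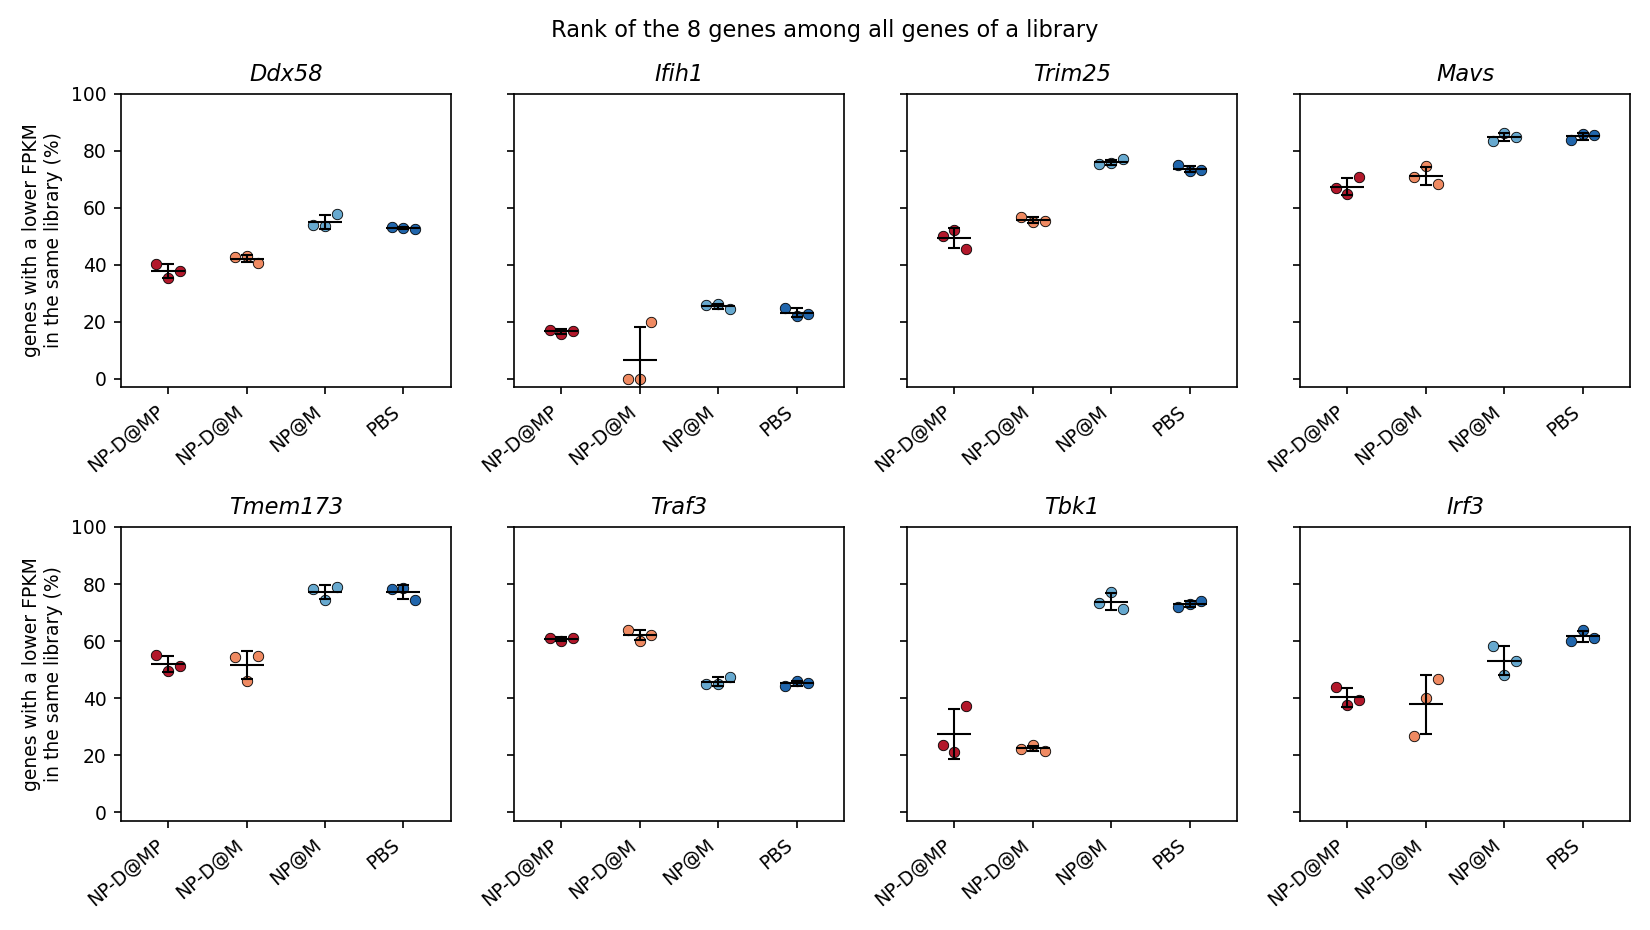
Share of all 12584 genes with a lower FPKM in the same library (vertical axis, %) for each of the 8 genes, by library (points), with the group mean and SD (n = 3) as bars, cut at the axis for Ifih1 with NP-D@M. Tbk1 dropped to 21.3 to 37.4% with NP-D@MP and 21.6 to 23.5% with NP-D@M, against 71.3 to 77.1% with NP@M and 72.1 to 74.2% with PBS, while Traf3 ranked higher with D.

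Set against Mavs in the same library, which also takes the scaling out, the members shifted relative to each other. The ratio of Traf3 to Mavs was 0.635 ± 0.119 with NP-D@MP and 0.535 ± 0.165 with NP-D@M, against 0.199 ± 0.0235 with NP@M and 0.186 ± 0.00635 with PBS (SD, n = 3 each), with no overlap between the libraries with and without D. The ratio of Tbk1 to Mavs was 0.0789 ± 0.0337 with NP-D@MP and 0.0331 ± 0.0108 with NP-D@M, against 0.576 ± 0.0575 with NP@M and 0.540 ± 0.0303 with PBS, again with no overlap. Tbk1 thus lost 17.4-fold against Mavs in NP-D@M relative to NP@M, and Traf3 gained 2.69-fold. Ddx58, Trim25, Tmem173 and Irf3 lost 1.82- to 2.33-fold against Mavs there, Irf3 with overlap between the groups. Ifih1 lost 4.85-fold, a value that rests on library N9 alone, without which the NP-D@M ratio is 0. A ratio shows unequal change and not which gene of a pair moved. Mavs had the smallest fold of the lower genes, so a loss of the others against it follows from that. The share of all genes without overlap in their ratio to Mavs was not computed. In FPKM it was 87.3% of tested genes for NP-D@M against NP@M and 93.0% for NP-D@MP against PBS. The lack of overlap in a ratio therefore does not set Traf3 or Tbk1 apart.

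Between the 2 agents with D, none of the 7 tested genes was called in NP-D@MP against NP-D@M (limma, Benjamini-Hochberg), where 0.0396% of all tested genes were called higher and 0.00990% lower. Of the 7, 1 had an unadjusted p under 0.05, as had 1713 of the 10101 tested genes, and limma voom on the recovered reads called no gene. That gene was Trim25, with 2.0 ± 0.405 FPKM with NP-D@MP and 2.81 ± 0.128 FPKM with NP-D@M (SD, n = 3 each) and a log2 change of -0.35 (95% CI -0.58 to -0.13, limma, adjusted p = 0.201). Trim25 and Ddx58 were the members whose groups did not overlap, both lower with NP-D@MP. That was so of 14.2% of all tested genes. Mavs differed by -0.32 on the log2 scale (95% CI -0.70 to 0.05) and Tbk1 by 0.26 (95% CI -0.06 to 0.59). Mean Tbk1 FPKM was 2.04-fold higher with NP-D@MP, but 1.26-fold without library N12. Irf3, Tmem173 and Traf3 had intervals of -0.34 to 0.60, -0.30 to 0.38 and -0.27 to 0.13.

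NP@M was set against PBS in the same way, and again none of the 7 was called (limma, Benjamini-Hochberg). Over all tested genes, 0% were called higher and 0.00990% lower. None of the 7 had an unadjusted p under 0.05, against 1092 of all 10101 tested genes, and limma voom called none of the 7, beside 19 genes higher and 51 lower. Irf3 was lowest relative to PBS, with 3.79 ± 0.753 FPKM with NP@M and 5.26 ± 0.456 FPKM with PBS (SD, n = 3 each), a log2 change of -0.40 (95% CI -0.87 to 0.08, adjusted p = 0.504). The groups did not overlap for Irf3, lower with NP@M, nor for Ddx58 and Ifih1, higher with NP@M. That was so of 28.4% of all tested genes. Ddx58 averaged 4.03 ± 0.348 FPKM with NP@M and 3.71 ± 0.0545 FPKM with PBS, and Ifih1 0.904 ± 0.0645 FPKM with NP@M and 0.728 ± 0.0834 FPKM with PBS. For the other 6 tested genes the log2 change lay between -0.06 and 0.10.

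Around the 8 genes, 101 other genes of the pathway were listed in 7 groups, of which 81 could be tested. In NP-D@M against NP@M 31 of the 81 were called higher and 44 lower, and in NP-D@MP against PBS 31 and 43. These shares were 38.3% and 54.3%, and 38.3% and 53.1%, near those of all tested genes, 41.8% and 47.7%, and 43.2% and 47.3%. Under table-read scaling these counts were 14 and 64, and 12 and 64. The shares were then 17.3% and 79.0%, and 14.8% and 79.0%, beside 17.5% and 70.5%, and 17.5% and 70.7% of all tested genes. None of the 81 was called in NP-D@MP against NP-D@M or in NP@M against PBS. Among the listed partners of the RIG-I-like receptors, 5 of 9 were called higher and 4 lower in NP-D@M against NP@M, with a median log2 change of 0.43 beside -0.19 for all genes. Ywhae, which encodes the 14-3-3 protein that carries RIG-I to the membrane, fell to 21 ± 3.12 FPKM with NP-D@M, against 143 ± 12.1 FPKM with NP@M (log2 change -2.71, limma, Benjamini-Hochberg adjusted p = 8.99e-10). The helicase gene Ddx3x averaged 7.29 ± 0.761 FPKM with NP-D@M and 44.7 ± 5.25 FPKM with NP@M, and Tomm70a, a mitochondrial import receptor that binds MAVS, 2.05 ± 0.521 FPKM with NP-D@M and 10.8 ± 0.790 FPKM with NP@M. Higher in FPKM were the helicase gene Dhx15 (log2 change 0.72), the RNA-activated kinase gene Eif2ak2 (0.86) and Mex3c (0.80), an E3 ligase of RIG-I, but all 3 were called lower under table-read scaling. All 9 were then called lower.

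On the DNA side 4 of 11 genes were called higher and 6 lower in NP-D@M against NP@M, with a median of -0.46, and 1 and 9 under table-read scaling. Of all tested genes, 41.8% were called higher and 47.7% lower there, and 17.5% and 70.5% under table-read scaling. Ddx41, a helicase reported to sense DNA, averaged 122 ± 8.33 FPKM with NP-D@M and 9.40 ± 0.659 FPKM with NP@M (log2 change 3.56, limma, Benjamini-Hochberg adjusted p = 6.05e-11), and was the 1 that stayed higher, at 1.81. The Ku subunit genes Xrcc5 and Xrcc6 had log2 changes of 1.83 and 0.72 under the authors' scaling, but 0.06 (not called) and -0.96 (called lower) under table-read scaling. Slc19a1 and Lrrc8a, whose products let cyclic dinucleotides into cells, had log2 changes of -1.15 and -1.11, and Ifi204, a DNA-binding member of the interferon-inducible p200 family, one of -0.90. Lrrc8a passed the filter on low values only through the libraries without D. The cGAS gene, listed under its older symbol Mb21d1, was called lower at -0.46 (adjusted p = 0.00324). It was named after its values were seen, for its place upstream of STING.

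Of 11 genes for further kinases and adaptors 10 were called lower and 1 higher in NP-D@M against NP@M, with a median of -0.84, beside 47.7% of all tested genes called lower and 41.8% higher. Under table-read scaling all 11 were called lower, beside 70.5% of all tested genes. Traf6, Ripk1 and Fadd stayed below 1 FPKM in every library with D. They passed the filter on low values only through the libraries without D, so these counts support nothing about the list. Traf6, a ubiquitin ligase of the TRAF family, fell to 0.380 ± 0.302 FPKM with NP-D@M, against 3.51 ± 0.205 FPKM with NP@M. Ripk1 averaged 0.354 ± 0.117 FPKM with NP-D@M and 3.20 ± 0.280 FPKM with NP@M, and Fadd, its death domain partner, 0.221 ± 0.330 FPKM with NP-D@M and 2.34 ± 0.430 FPKM with NP@M. The ratio of NP-D@M to NP@M was 0.108 for Traf6, on 5 to 44 reads with NP-D@M, and 0.0943 for Fadd, on 0 to 17. Each ratio leans on 1 library. Without N9 that of Traf6 is 0.0656 (15.2-fold lower). Without N8 the Fadd mean with NP-D@M is 0.0312 FPKM, too low to give a fold. Ikbkb, the IKK-beta gene, was the 1 higher, at 0.38 (limma, Benjamini-Hochberg adjusted p = 0.0161), and at -0.74 under table-read scaling. In NP-D@MP against PBS 9 were called lower and 1 higher, beside 47.3% and 43.2% of all tested genes.

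Of 9 transcription factor and coactivator genes, 2 were called higher and 7 lower in NP-D@M against NP@M and in NP-D@MP against PBS. Medians were -1.51 and -1.49 under the authors' scaling, where 41.8% and 43.2% of all tested genes were called higher and 47.7% and 47.3% lower. The counts were the same under table-read scaling, where 17.5% of all tested genes were called higher in each and 70.5% and 70.7% lower. Irf7, the interferon-inducible relative of Irf3, averaged 22.8 ± 2.98 FPKM with NP-D@MP and 19.8 ± 4.38 FPKM with NP-D@M, against 2.08 ± 0.418 FPKM with NP@M and 2.29 ± 0.608 FPKM with PBS. Its log2 change was 2.75 in NP-D@M against NP@M (limma, Benjamini-Hochberg adjusted p = 3.28e-08) and 1.23 under table-read scaling. Irf7 and Irf3 thus stood in opposite directions. Jun, which binds the Ifnb1 enhancer as a dimer with ATF2, was the other higher gene, at 115 ± 30.8 FPKM with NP-D@M and 13.9 ± 3.20 FPKM with NP@M. Log2 changes were -2.0 for Irf1, -1.68 for Ep300, the coactivator that IRF3 recruits, and -1.56 for the NF-kB subunit gene Nfkb1. Irf1 passed the filter on low values only through the libraries without D, so its call of lower was favoured by the filter. For Irf1 the level with NP-D@M was 0.258 ± 0.205 FPKM, on 3 to 16 reads, against 3.99 ± 0.301 FPKM with NP@M. That is a ratio of 0.0646, and of 0.0355 (28.1-fold lower) without library N9.

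Among target genes of the pathway, 7 of 13 were called higher and 5 lower in NP-D@M against NP@M, and 5 and 8 under table-read scaling. The shares of all tested genes were 41.8% and 47.7%, and 17.5% and 70.5% under table-read scaling. Ifnb1, Cxcl10 and Ccl5 passed the filter on low values only through the libraries with D, and Ifit1, lower with D, did not pass it, so the count supports nothing about the list. Ifnb1, the interferon-beta gene, had 12, 8 and 6 reads with NP-D@MP and 19, 14 and 17 with NP-D@M, and 0 in all 6 libraries without D. Taken against a floor of 3 reads a library, it was at least 21.2-fold higher in NP-D@M than in NP@M and at least 11.6-fold higher in NP-D@MP than in PBS, and under table-read scaling at least 5.94-fold and at least 3.12-fold in these comparisons. Bst2, which encodes the membrane protein tetherin, averaged 775 ± 91.0 FPKM with NP-D@M and 53.6 ± 1.12 FPKM with NP@M, with a log2 change of 3.82 (limma, Benjamini-Hochberg adjusted p = 1.25e-10). Isg20, an exonuclease gene, averaged 18.3 ± 3.67 FPKM with NP-D@M and 1.76 ± 0.336 FPKM with NP@M, and the chemokine gene Cxcl10 3.74 ± 0.421 FPKM with NP-D@M and 0.174 ± 0.0347 FPKM with NP@M. Ccl5, another chemokine gene, was called higher too, at 1.89 (adjusted p = 8.59e-06), on 17 to 43 reads with NP-D@M and 0 to 8 with NP@M. Its fold there, 26.9, is 63.6 without library N6. In NP-D@M against NP@M these 5 stayed called higher under table-read scaling. In NP-D@MP against PBS so did Ifnb1, Bst2, Isg20 and Cxcl10, but Ccl5, at 0.39, was not called.

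Other targets went down. Ifit2, an interferon-induced RNA-binding protein gene, averaged 0.495 ± 0.354 FPKM with NP-D@M and 3.76 ± 0.379 FPKM with NP@M (log2 change -1.70, limma, Benjamini-Hochberg adjusted p = 5.17e-06). The ratio was 0.132, on 4 to 28 reads with NP-D@M, and 0.0846 (11.8-fold lower) without library N7. Oasl1 was called lower at -1.53 and Usp18, the ISG15 protease gene, at -1.23. Ifit2 and Usp18 would not have passed the filter on low values on the libraries with D alone, so their calls of lower were favoured by it. Isg15, which encodes a ubiquitin-like modifier, averaged 2.19 ± 0.787 FPKM with NP-D@MP and 5.07 ± 2.71 FPKM with NP-D@M, against 6.38 ± 1.09 FPKM with NP@M and 11 ± 0.333 FPKM with PBS. It was called lower in NP-D@MP against PBS, at -1.95 (limma, Benjamini-Hochberg adjusted p = 2.52e-05), and not in NP-D@M against NP@M, at -0.36 (adjusted p = 0.216). Under table-read scaling it was called lower in both, at -3.42 in NP-D@MP against PBS and -1.89 in NP-D@M against NP@M. The difference between these 2 results was not tested. Ifit1 was not tested because of its low level, 0.154 ± 0.228 FPKM with NP-D@M and 0.845 ± 0.254 FPKM with NP@M. Cd68 and Lyz2 were higher in the same libraries as the higher targets, while Ptprc was at or near 0.

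**Figure D4:**
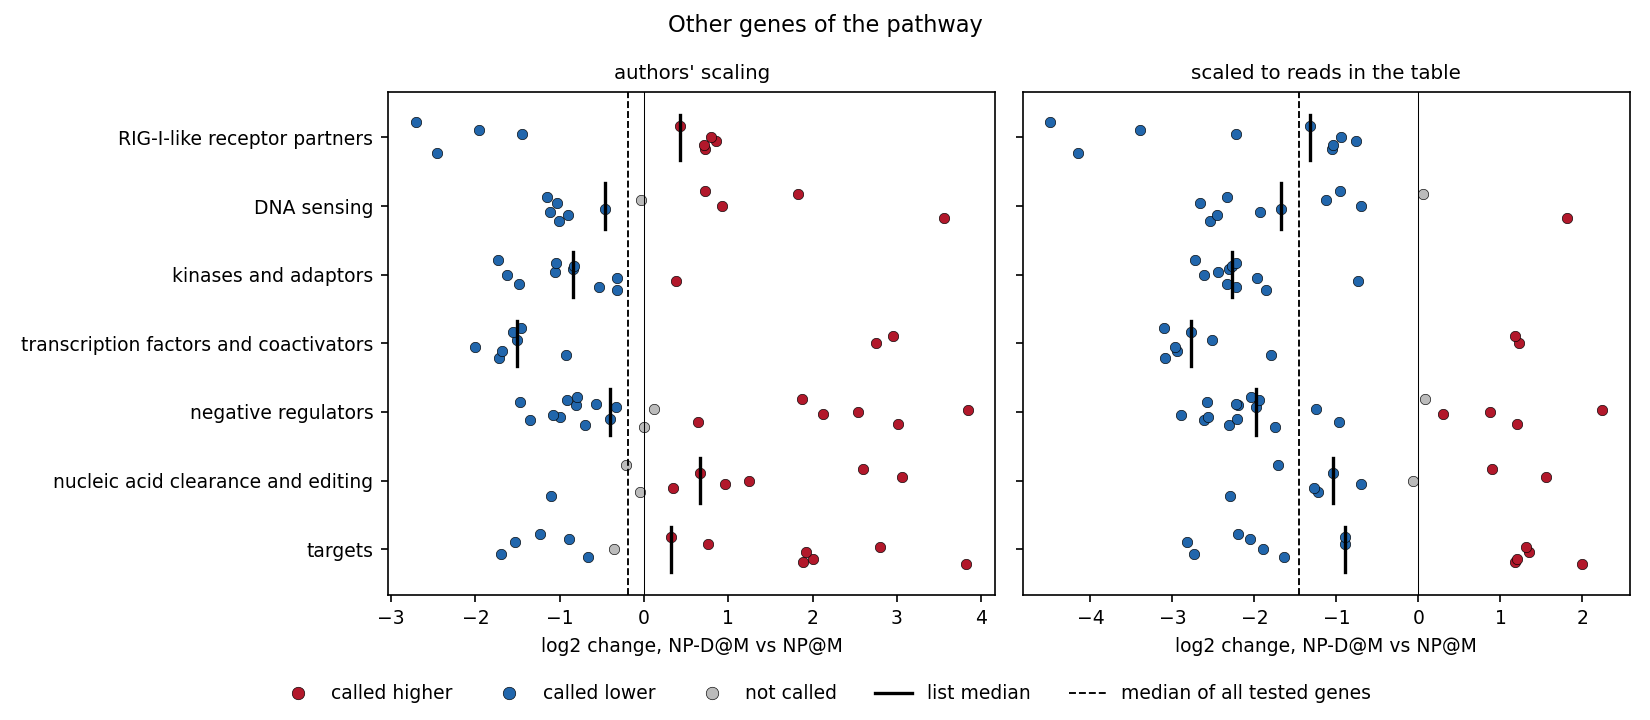
Log2 change of FPKM + 1 in NP-D@M against NP@M (horizontal axis) for the 81 tested genes (points) of 7 lists (rows), coloured by call, with each list's median (bar) and the median of all tested genes (dashed line), under the authors' scaling (left) and under table-read scaling (right). Kinases and adaptors lie mostly below 0 on both sides, with 10 of 11 and 11 of 11 called lower, beside 47.7% and 70.5% of all tested genes. Of these, Traf6, Ripk1 and Fadd passed the filter on low values only through the libraries without D. Target genes are found on both sides of 0 under either scaling.

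Names and positions are those of the table, whose coordinates are of GRCm38. Tmem173 lies on chromosome 18 from 35733678 to 35740554 (minus strand), with a length of 2302 bases in the table against 2741 exon bases in GENCODE M21, so its FPKM could differ with another length. Each of the 8 is a protein-coding gene, and the values are per gene, with no split by transcript. Stretches of 50 bases that also occur in transcripts of other genes made up 2.35% of those of Tbk1, 1.10% of Irf3, 0.393% of Ddx58, 0.295% of Trim25 and 0 of the other 4.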

How the data were processed

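The Illumina TruSeq kit was used on 1 ug of total RNA per library, per the labels' protocols. The authors deposited FPKM values for 12584 genes; neither the read counter nor its strand setting is stated in the sources used here. The tool Bowtie 0.12.2 and the build mm8 are named per the submitters' processing notes, but 12571 identifiers were found in GENCODE M21 (GRCm38), 12104 of them with identical coordinates.

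FPKM times gene length took only whole multiples of 1 unit in each library (relative tolerance 1e-06), which gave whole reads and the library size the authors had divided by. Changes were tested with limma 3.58.1 (R 4.3.3), fitted to log2(FPKM + 1), with at least 1 FPKM in at least 3 libraries, all 12 libraries in a single fit, and calls at a Benjamini-Hochberg adjusted p under 0.05 over 10101 genes. The fit was tried on simulated reads with few changed genes and with the reads in the table as library sizes. That setting does not cover the wide change or the authors' library sizes met here. Groups came from the sample titles. Floors of 3 reads cover counting error only, while the 95% intervals of log2 changes are those of limma, from the spread between libraries.

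The members, lists and tests were chosen with earlier results of these data known. Named from each list are up to 3 genes called higher and 3 called lower with the smallest p in NP-D@M against NP@M or in NP-D@MP against NP-D@M, with 5 target genes fixed by name, and for each member the gene with the most similar course over the libraries. A gene that this rule names is not reported here. Alternatives were table-read scaling, scaling to a median ratio or by quantiles, a pseudocount of 0.1, all genes unfiltered, genes that average at least 5 FPKM, trend and robust settings, only the 6 libraries compared, limma voom on the recovered reads, and leaving out each library. Promoter windows are from RefSeq (GRCm38.p6).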

Additional observations from a re-analysis of the deposited data

How the results depend on the processing

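No paired analysis was possible because the titles number the libraries in a single series and no number is shared between groups. Under table-read scaling, Traf3 turned to -0.97 in NP-D@M against NP@M and -1.04 in NP-D@MP against PBS, and in limma voom on the recovered reads to -1.23 and -1.35. Members called higher were then 0 in both comparisons. With a mean of at least 5 FPKM, which left only Mavs, Tmem173 and Trim25 to test, 0 were called higher and 3 lower in both. Tmem173 in NP-D@MP against NP-D@M, not called, was -0.01 under table-read scaling and -0.02 in voom. All other calls of members, or the lack of one, and their direction were the same under each alternative run in these comparisons, leaving out each library included, except for the 5 results that follow, none of them called. Without each library in turn, Tmem173 ranged from -0.12 to 0.06, Tbk1 from -0.08 to 0.10 and Traf3 from -0.02 to 0.04 in NP@M against PBS, and Irf3 from -0.14 to 0.36 and Tmem173 from -0.13 to 0.15 in NP-D@MP against NP-D@M. Over all genes in NP-D@M against NP@M, 1765 were called higher and 7124 lower under table-read scaling and 1732 and 7123 in voom, beside 4222 and 4815. In NP-D@MP against PBS these counts were 1771 and 7145, and 1730 and 7136, beside 4367 and 4777. With a mean of at least 5 FPKM, which left 4944 genes to test, they were 3193 and 1381 (64.6% and 27.9%), and 3245 and 1339 (65.6% and 27.1%). In NP-D@MP against NP-D@M 4 were called higher and 1 lower, but 20 and 6 with a pseudocount of 0.1 and 11 and 10 without the filter. Depth limits Tbk1 and Ifih1 most, which had at most 27 and 18 reads in a library with D.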

Other observations

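Of 9 tested genes that clear or edit stray nucleic acid, 6 were called higher and 1 lower in NP-D@M against NP@M, beside 41.8% of all tested genes called higher and 47.7% lower, with a median log2 change of 0.66 beside -0.19 for all genes. Under table-read scaling 2 were called higher and 6 lower, beside 17.5% and 70.5% of all tested genes. The list's median was then -1.04, beside -1.46 for all genes, so it lay above that of all genes under both scalings. Skiv2l, a helicase of the RNA exosome, averaged 42.8 ± 3.71 FPKM with NP-D@M and 6.2 ± 0.446 FPKM with NP@M (SD, n = 3 each). Rnaseh2c, a subunit of the enzyme that removes RNA from RNA-DNA hybrids, averaged 24.7 ± 8.87 FPKM with NP-D@M and 2.02 ± 0.909 FPKM with NP@M. Both stayed called higher under table-read scaling, at 0.90 and 1.55, whereas the subunit gene Rnaseh2b, at 1.25 under the authors' scaling, was at -0.07 and not called. Adar, the RNA-editing enzyme that keeps self RNA from MDA5, fell by 1.10 on the log2 scale (limma, Benjamini-Hochberg adjusted p = 3.54e-06). Among negative regulators of the pathway 6 of 19 were called higher and 11 lower, with a median of -0.40, and 4 and 14 under table-read scaling. Pcbp2, which directs MAVS to degradation, averaged 352 ± 26.2 FPKM with NP-D@M and 80.1 ± 3.42 FPKM with NP@M. Its log2 change of 2.12 there was 0.30 under table-read scaling, still called higher. In NP-D@MP against PBS it was 1.97 under the authors' scaling, but 0.09 and not called under table-read scaling. Banf1, a chromatin protein that keeps cGAS off nuclear DNA, averaged 452 ± 97.2 FPKM with NP-D@M and 53.9 ± 2.26 FPKM with NP@M. The deubiquitinase genes Tnfaip3 and Otud5 were called lower at -1.47 and -1.0, and Itch, a ligase that acts on MAVS, at -1.35. Tnfaip3 would not have passed the filter on low values on the libraries with D alone.

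The tested gene most like each member over the 12 libraries, by the root mean square difference of centred log2(FPKM + 1), was Chd8 for Ddx58 (0.0815), Ube2j2 for Trim25 (0.0983), C1rl for Mavs (0.12), Tpst2 for Tmem173 (0.106), Nipsnap2 for Traf3 (0.0704), Ddx20 for Tbk1 (0.145) and Rab40c for Irf3 (0.148). Ddx20, for instance, averaged 0.426 ± 0.159 FPKM with NP-D@MP and 0.140 ± 0.0384 FPKM with NP-D@M, against 7.91 ± 0.511 FPKM with NP@M and 7.17 ± 0.112 FPKM with PBS.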
